A study of Mus musculus with 8 samples.

Results

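The unfolded protein response and the integrated stress response were followed through 34 genes in the contused mouse spinal cord. The genes were chosen by name, with earlier results of these data known. They are sensors, transcription factors, chaperones, disulfide isomerases, degradation factors and output genes of both pathways. All 34 had at least 1 mRNA probe on the array (33 through the gene name in the files, and Pdia3 through its RefSeq accession), and all 34 passed the filter on dim probes, out of 18198 mRNA genes tested.

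The samples were spinal cord from 8 female mice aged 8 weeks, 4 with a contusion, which is a bruise of the cord from a blunt impact, and 4 controls, with 1 array per mouse. The tissue covered segments T9 to T10 at the injury, and no strain or genotype is given in the sources used here. The titles put all contusion samples at 3 days, whereas their descriptions give 3, 4, 5 and 6 days for replicates 1, 2, 3 and 4, and the controls are called sham in the design text and normal cord in the descriptions. The arrays lay on 2 slides: slide 1 held contusion replicate 1 with control replicates 2, 3 and 4, and slide 2 held contusion replicates 2, 3 and 4 with control replicate 1, so slide and described day cannot be told apart within the contusion group.

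Proteins that enter the endoplasmic reticulum (ER) are folded there by chaperones and oxidised by disulfide isomerases, and those that fail are sent back to the cytosol for degradation. When unfolded protein accumulates, the ER membrane sensors IRE1, PERK and ATF6 raise the capacity for folding and degradation through the transcription factors XBP1, ATF4 and the cleaved form of ATF6. PERK is also 1 of the kinases that phosphorylate the translation factor eIF2, which lowers protein synthesis in general and favours translation of ATF4; this arm, shared with other stresses, is called the integrated stress response, and its later outputs include CHOP (gene Ddit3).

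A level is the log2 intensity of the brightest probe of a gene minus the 75th percentile of its array, and it can be compared between arrays but not between genes. A difference is the contusion mean minus the control mean on that log2 scale, with limma's standard error and n = 4 arrays per group, and a gene is called where limma's adjusted p over all 89140 features is under 0.05. Errors of levels are SDs (n = 4).

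Of the 15 ER chaperones and disulfide isomerases, 12 were called higher in contused cord, 1 was called lower and 2 were not called. The largest differences among the 34 genes, by the brightest probe of each, were those of Sdf2l1, Derl2, Pdia6 and Manf, each above 1 on the log2 scale; for Derl2 the mean of its 3 probes gave 0.42. In all, 24 of the 34 genes were called higher, 2 were called lower (Asns and Pdia3) and 8 were not called. Of all mRNA genes tested, 25.8% were called higher and 25.4% lower. Because the genes were chosen with earlier results of these data known, these shares are a description and were not tested. The median difference was 0.36 over the 34 genes and -0.0016 over all mRNA genes. All 4 contusion arrays lay above all 4 control arrays for 24 genes, a pattern that 26.6% of all mRNA genes showed, and below them for 2 genes, against 25.2% of all mRNA genes. Of the 34 genes 4 (11.8%) were called higher with a difference of at least 1, and 8.33% of all mRNA genes were. In whole tissue, fewer cells of a type and less RNA per cell cannot be told apart, and the same holds for more cells and more RNA per cell.

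The levels of cell type markers differed as well. Macrophage and monocyte markers were called higher for 10 of 10 genes, with a mean level of 4.36 to 4.73 on the contusion arrays and 0.14 to 2.21 on the control arrays. Dividing-cell markers were called higher for 6 of 6 genes, with mean levels of 2.58 to 3.41 on the contusion arrays and -1.45 to 0.58 on the control arrays. Fibroblast markers were called higher for 5 of 9 genes, with mean levels of 4.36 to 4.70 on contusion and 2.56 to 4.34 on control arrays, and neuron markers were called lower for 11 of 11 genes, with 5.57 to 5.87 on contusion and 6.35 to 6.54 on control arrays. Endothelial markers were called higher for 5 of 6 genes (mean levels 3.04 to 3.28 on contusion and 2.02 to 2.55 on control arrays) and resident microglia markers for 5 of 8 (3.07 to 3.40 on contusion and 2.24 to 2.88 on control arrays). Motor neuron markers were called lower for 4 of 6 genes (0.78 to 1.15 on contusion and 1.58 to 1.68 on control arrays). Astrocyte markers were called higher for 3 and lower for 2 of 7 genes (6.52 to 6.55 on contusion and 6.37 to 6.61 on control arrays), and oligodendrocyte markers higher for 1 and lower for 2 of 8 (7.57 to 7.65 on contusion and 7.62 to 7.97 on control arrays). Plasma and B cell markers, which mark cells rich in ER, had mean levels of -2.63 to -2.30 on contusion and -2.91 to -2.36 on control arrays, with 2 called higher (Sdc1 and Cd79b), 1 lower (Tnfrsf17) and 6 not called. Of all markers listed, Ms4a1 and Mnx1 were not well above background on every array. Skeletal muscle markers averaged 4.12, 2.26, -0.02 and -0.23 on contusion replicates 1 to 4 and -0.82 to 1.17 on the control arrays, and limma called 0 of 9, with 0 of 9 also at an unadjusted p under 0.05. The part of these cell types in the results was not tested. Without contusion replicates 1 and 2, limma called 17 of the 34 genes higher and 0 lower (3 lower at an unadjusted p under 0.05), while 19.5% of all mRNA genes were called higher. The 7 calls higher and 2 lower that ended were those of Atf6, Ern1, Eif2ak3, Hyou1, Ppp1r15a, Chac1 and Sesn2, and of Asns and Pdia3. With slide as a block, 23 were called higher and 1 lower (Ern1, Ppp1r15a and Asns were lost and Atf4 was gained), against 25.2% and 20.4% of all mRNA genes. Within slide 1 the median difference over the 34 genes was 0.40 and within slide 2 it was 0.39. Over all mRNA genes these medians were -0.0069 and 0.04. The sign on both slides was that of the full comparison for 29 of the 34 genes and for 14474 of all 18198 mRNA genes. Contusion replicate 1 was the only contusion array on slide 1, and control replicate 1 the only control array on slide 2.

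**Figure D1:**
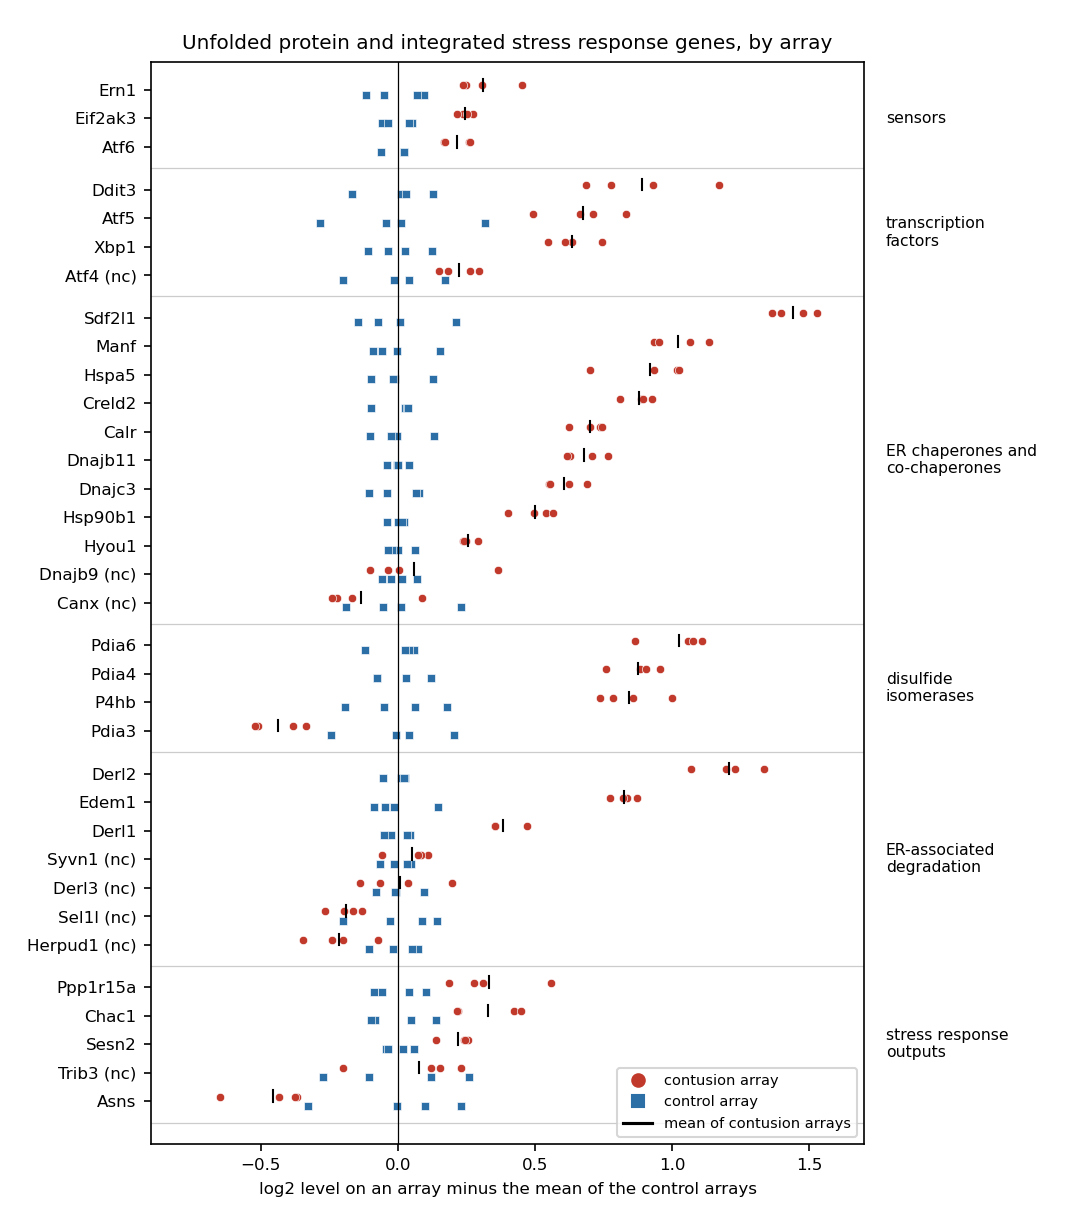
Level of each of the 34 genes on every array, as log2 level minus the mean of the control arrays; circles are the 4 contusion arrays, squares the 4 control arrays, and a black tick marks the contusion mean. Genes marked nc were not called; the contusion means of Sdf2l1, Derl2, Pdia6 and Manf lie above 1, and the contusion arrays of Asns and Pdia3 lie left of the controls.

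The 3 membrane sensors were all called higher, by small amounts. Ern1, which encodes IRE1, the kinase and nuclease that splices Xbp1 mRNA, had levels of -0.24, -0.18, -0.03 and -0.25 on the contusion arrays and -0.39, -0.60, -0.42 and -0.54 on the control arrays. The groups did not overlap, and the difference was 0.31 ± 0.08 (adjusted p = 0.0147); with slide as a block it was 0.26 and no longer called (adjusted p = 0.0547). Eif2ak3, which encodes PERK, differed by 0.24 ± 0.06 (adjusted p = 0.0103), with contusion levels of 1.88 to 1.94 and control levels of 1.61 to 1.72; with normexp and quantile normalization it differed by 0.14 and was not called (adjusted p = 0.0549). Atf6, the sensor that is released from the ER and cleaved into a transcription factor, differed by 0.22 ± 0.06 (adjusted p = 0.0196). Its contusion levels were 1.12 to 1.22 and its control levels 0.89 to 0.98, and the call was lost without contusion replicate 1 (adjusted p = 0.0502) or without contusion replicate 4 (adjusted p = 0.0536). Nor was Atf6 called with normexp and quantile normalization (0.12, adjusted p = 0.125), with median scaling (0.20, adjusted p = 0.0656) or from the mean of its probes (0.07, adjusted p = 0.458). Its 3 probes differed: 2 were called higher and the dimmest was called lower, as described below.

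Of the transcription factors, Ddit3, Atf5 and Xbp1 were called higher and Atf4 was not called. Ddit3, which encodes CHOP, the factor linked to cell death under lasting ER stress, had levels of 4.77, 5.01, 4.62 and 4.52 on the contusion arrays, against 3.85, 3.97, 3.67 and 3.87 on the control arrays. Every contusion array was above every control array, and the difference was 0.89 ± 0.12, or 1.86-fold (adjusted p = 0.00067). Atf5, a factor made under eIF2 phosphorylation much as ATF4 is, averaged 5.16 ± 0.14 in contused cord and 4.48 ± 0.25 in control cord, a difference of 0.68 ± 0.13 (adjusted p = 0.00438). Xbp1 averaged 2.68 ± 0.08 in contused cord and 2.05 ± 0.10 in control cord, a difference of 0.63 ± 0.07 (adjusted p = 0.00044). Both Xbp1 probes were called higher; splicing by IRE1 was not measured by these values. Atf4 had levels of 6.83, 6.72, 6.87 and 6.75 on the contusion arrays and 6.37, 6.74, 6.61 and 6.55 on the control arrays, and control replicate 2 overlapped the contusion group. Its difference was 0.22 ± 0.09 (adjusted p = 0.0796), its second probe was called higher by 0.27 ± 0.06 (adjusted p = 0.00838), and with slide as a block the difference was 0.30 and called (adjusted p = 0.0343). Since ATF4 is controlled largely in translation, its mRNA level is an incomplete readout of its activity.

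Of the 11 chaperones and co-chaperones, 9 were called higher and 2 were not called, with a median difference of 0.68. Sdf2l1, a protein that works with the ER chaperone BiP and its partner Dnajb11, had levels of 3.77, 3.81, 3.93 and 3.88 on the contusion arrays and 2.62, 2.33, 2.41 and 2.26 on the control arrays. The difference, 1.44 ± 0.09 or 2.72-fold, was the largest of the 34 genes (adjusted p = 8.28e-05). Manf, a secreted ER protein known also as a neurotrophic factor, had levels of 3.90, 4.10, 3.92 and 4.03 on the contusion arrays and 3.12, 2.87, 2.96 and 2.91 on the control arrays. The groups were far apart, with a difference of 1.02 ± 0.08 (2.03-fold, adjusted p = 0.00013). Hspa5, which encodes BiP, the main Hsp70 chaperone of the ER and the keeper of the sensors in their inactive state, had levels of 6.58, 6.90, 6.81 and 6.91 on the contusion arrays and 6.01, 5.78, 5.87 and 5.86 on the control arrays. Its lowest contusion array, replicate 1, was still above its highest control array, and the difference was 0.92 ± 0.09 (1.89-fold, adjusted p = 0.00024).

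Creld2, a secreted and ER-resident stress protein, had levels of 5.02, 5.10, 5.14 and 5.11 on the contusion arrays, against 4.24, 4.24, 4.25 and 4.11 on the control arrays. Both groups were tight, and the difference was 0.88 ± 0.06 (adjusted p = 0.00011). The lectin chaperone Calr differed by 0.70 ± 0.07 (adjusted p = 0.00023), the BiP co-chaperone Dnajb11 by 0.68 ± 0.06 (adjusted p = 0.00018) and Dnajc3, known as p58IPK, by 0.61 ± 0.07 (adjusted p = 0.00038). Hsp90b1, the ER Hsp90 called GRP94, differed by 0.50 ± 0.06 (adjusted p = 0.00049), and Hyou1, which exchanges nucleotide on BiP, by 0.25 ± 0.06 (adjusted p = 0.00729). For these 5 genes, too, no contusion array fell within the range of the controls.

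The other chaperones were not called. Canx, the membrane-bound partner of Calr in folding glycoproteins, averaged 6.18 ± 0.15 in contused cord and 6.31 ± 0.17 in control cord (difference -0.14 ± 0.11, adjusted p = 0.379), and its sign turned with slide as a block (0.0020). Dnajb9, a BiP co-chaperone known to respond strongly to XBP1, had levels of 3.58, 3.11, 3.21 and 3.17 on the contusion arrays and 3.23, 3.15, 3.28 and 3.19 on the control arrays. Contusion replicate 1 was the one high array, and the groups otherwise covered the same range (difference 0.06 ± 0.11, adjusted p = 0.708). Without that array the difference was -0.05.

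Some of the promoters hold a known response element, shown here because it is the site through which ATF6 and the factor NF-Y act on chaperone genes. The ER stress response element was searched as CCAAT, then 9 bases, then CCACG, on both strands, in the 300 bases that RefSeq (GRCm38.p6) gives around each gene start, and 30 of the 34 genes were in that table (Derl1, Atf6, Hyou1 and Manf were not). It was found in 9 of the 30 (30%) and in 37 of all 27025 genes of the table (0.137%), and 6 of the 9 genes were called higher. The 9 include 6 of the 11 chaperones and co-chaperones, while Sdf2l1, Dnajb9 and Dnajb11 had no match to it. Each sequence is upstream of the gene start and runs 5′ to 3′ along the gene, with the fixed letters of the element in capitals, which read as the reverse complement where the element is on the other strand.
Hspa5, chr2:34772005-34772063, plus strand: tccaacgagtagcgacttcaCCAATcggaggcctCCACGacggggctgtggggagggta
Hsp90b1, chr10:86705513-86705676, minus strand: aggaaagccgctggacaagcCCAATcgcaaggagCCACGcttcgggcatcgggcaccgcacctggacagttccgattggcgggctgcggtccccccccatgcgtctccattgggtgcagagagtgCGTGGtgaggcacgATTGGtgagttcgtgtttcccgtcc
Calr, chr8:84847055-84847113, minus strand: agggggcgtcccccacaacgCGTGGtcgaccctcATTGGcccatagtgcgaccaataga
Creld2, chr15:88819500-88819558, plus strand: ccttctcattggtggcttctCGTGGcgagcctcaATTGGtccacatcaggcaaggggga
Dnajc3, chr14:118937807-118937865, plus strand: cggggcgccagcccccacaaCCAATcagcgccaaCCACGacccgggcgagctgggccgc
Pdia6, chr12:17266471-17266529, plus strand: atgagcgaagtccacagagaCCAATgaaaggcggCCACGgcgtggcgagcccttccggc
Canx, chr11:50325780-50325838, minus strand: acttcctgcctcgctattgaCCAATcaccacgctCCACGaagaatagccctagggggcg
Derl3, chr10:75893222-75893280, plus strand: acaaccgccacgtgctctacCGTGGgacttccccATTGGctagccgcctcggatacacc
Syvn1, chr19:6046512-6046570, plus strand: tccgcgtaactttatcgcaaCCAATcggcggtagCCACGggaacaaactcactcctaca

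Of these genes, Hspa5, Hsp90b1, Calr, Creld2, Dnajc3 and Pdia6 were called higher, whereas Canx, Derl3 and Syvn1 were not called. Hsp90b1 held the element at both ends of the stretch shown, once on each strand. The median difference was 0.61 over the 9 genes with the element and 0.33 over the 21 genes without it in this window, of which 14 were called higher and 2 lower. The gene with the largest difference, Sdf2l1, had no exact match. The short form of the element (ATTGG, 1 base, CCACG) was found in Herpud1 and Dnajb11, or 6.67% of the 30 genes, against 0.0444% of all genes. The XBP1 element TGACGTGG was found in 0 of the 30 genes and in 0.714% of all genes. A match describes the letters in this window and is not evidence of binding. The genes were chosen by name from the pathways that these elements serve, so a higher share among them is no independent result.

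Of the 4 disulfide isomerases, which make and rearrange disulfide bonds in new proteins, 3 were called higher and Pdia3 was called lower. Pdia6 had levels of 5.28, 5.48, 5.49 and 5.53 on the contusion arrays and 4.47, 4.46, 4.44 and 4.30 on the control arrays. The difference was 1.03 ± 0.08 (2.04-fold, adjusted p = 0.00012), and all 4 of its probes were called higher, by 0.47 to 1.04. Pdia4 had levels of 2.84, 2.65, 2.77 and 2.79 on the contusion arrays and 1.81, 1.92, 2.01 and 1.81 on the control arrays, again with no overlap (difference 0.88 ± 0.07, adjusted p = 0.00015). P4hb, which encodes the abundant PDI and also a subunit of the collagen prolyl hydroxylase, differed by 0.84 ± 0.10 (adjusted p = 0.00041).

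Pdia3, the isomerase that partners Calr and Canx on glycoproteins and sits in the MHC class I loading complex, ran the other way on its single mRNA probe. Its levels were 0.79, 0.61, 0.74 and 0.60 on the contusion arrays and 0.88, 1.33, 1.11 and 1.16 on the control arrays. The highest contusion array was just below the lowest control array, and the difference was -0.44 ± 0.10 (adjusted p = 0.0103). The circRNA probes at the same locus rose, as described below.

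Among the 7 genes of ER-associated degradation, the route that moves misfolded proteins to the proteasome, 3 were called higher and 4 were not called, with a median difference of 0.05. Derl2, a membrane protein of the export channel, had levels of 4.89, 5.05, 5.02 and 5.16 on the contusion arrays and 3.85, 3.83, 3.84 and 3.77 on the control arrays. The control arrays spanned less than 0.1 and the groups were more than 1 apart, with a difference of 1.21 ± 0.07 (2.31-fold, adjusted p = 8.27e-05). This value rests on 1 of its 3 probes: the others differed by -0.0048 and 0.05, and the mean of the 3 by 0.42. Edem1, a lectin that draws misfolded glycoproteins out of the folding cycle, averaged 3.13 ± 0.04 in contused cord and 2.30 ± 0.10 in control cord (difference 0.83 ± 0.07, adjusted p = 0.00015). Derl1, a relative of Derl2, differed by 0.38 ± 0.06 (adjusted p = 0.00152).

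Herpud1, Sel1l and Syvn1, which build the ubiquitin ligase complex of the same route, were not called. Herpud1 averaged 3.95 ± 0.11 in contused cord and 4.17 ± 0.08 in control cord (difference -0.22 ± 0.08, adjusted p = 0.0594). Without contusion replicate 2 it was called lower (-0.26, adjusted p = 0.0336). Sel1l averaged 4.38 ± 0.06 in contused cord and 4.57 ± 0.15 in control cord (difference -0.19 ± 0.09, adjusted p = 0.117), and it was called lower without control replicate 1 (-0.26, adjusted p = 0.025). Syvn1, the ligase itself, had levels of 5.22, 5.39, 5.36 and 5.35 on the contusion arrays and 5.27, 5.33, 5.22 and 5.31 on the control arrays, which overlap (difference 0.05 ± 0.06, adjusted p = 0.565). Derl3, the derlin known from secretory tissues, had levels of -0.50, -0.17, -0.33 and -0.43 on the contusion arrays and -0.37, -0.27, -0.45 and -0.37 on the control arrays. The 2 groups cover the same range, and the difference of 0.0079 ± 0.09 (adjusted p = 0.953) had no stable sign.

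Of the 5 outputs of the integrated stress response, 3 were called higher, 1 lower and 1, Trib3, was not called, with a median difference of 0.22 by the brightest probe of each. Ppp1r15a, which encodes GADD34, the phosphatase subunit that restores translation, averaged 2.23 ± 0.16 in contused cord and 1.90 ± 0.09 in control cord (difference 0.33 ± 0.09, adjusted p = 0.0221). Its adjusted p was 0.0733 in the fit with slide as a term, 0.0586 when control replicate 2 was left out and 0.0623 when control replicate 4 was, none of them a call, and with normexp and quantile normalization it was 0.0746 (difference 0.23). Chac1, which degrades glutathione, averaged 3.01 ± 0.13 in contused cord and 2.68 ± 0.11 in control cord (difference 0.33 ± 0.09, adjusted p = 0.0198). Its adjusted p was 0.0508, 0.0513 and 0.0518 without contusion replicate 1, contusion replicate 2 and control replicate 3 in turn. Sesn2, a stress protein that restrains mTORC1, averaged 3.71 ± 0.05 in contused cord and 3.49 ± 0.05 in control cord (difference 0.22 ± 0.06, adjusted p = 0.0191). Its call was lost without contusion replicate 3 (adjusted p = 0.054), without control replicate 2 (adjusted p = 0.0523) and with median scaling (0.20, adjusted p = 0.0525).

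Asns, the asparagine synthetase that ATF4 is known to induce when amino acids are short, was called lower. Its levels were 5.41, 5.40, 5.34 and 5.12 on the contusion arrays and 5.44, 6.00, 5.77 and 5.87 on the control arrays. Control replicate 1 was close to the contusion arrays, and the difference was -0.46 ± 0.13 (adjusted p = 0.0219). A term for slide ended the call (-0.32, adjusted p = 0.0725), and so did leaving out contusion replicate 4, control replicate 2 or control replicate 4, at adjusted p-values of 0.0585, 0.0556 and 0.0604. Trib3, a pseudokinase induced by ATF4 and CHOP that dampens ATF4 in turn, had levels of -0.65, -0.30, -0.33 and -0.22 on the contusion arrays and -0.19, -0.56, -0.72 and -0.33 on the control arrays. These overlap (difference 0.08 ± 0.14, adjusted p = 0.702), but another Trib3 probe gave a different value.

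The CEBP-ATF composite, the site at which ATF4 pairs with C/EBP factors, is shown for the genes that hold it upstream of the start. It was searched as TGATG, 1 base, AA and 1 further base on both strands, and 4 of the 30 genes held it (Asns, Chac1, Herpud1 and Trib3, 13.3%), against 4.5% of all genes. The choice of the genes by name limits these shares as well. Capitals mark its fixed letters and, in Herpud1, also those of the short ER stress response element near the end.
Asns, chr6:7693210-7693252, minus strand: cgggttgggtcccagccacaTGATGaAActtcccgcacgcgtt
Chac1, chr2:119351029-119351076, plus strand: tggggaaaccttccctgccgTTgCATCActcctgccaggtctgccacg
Herpud1, chr8:94386297-94386407, plus strand: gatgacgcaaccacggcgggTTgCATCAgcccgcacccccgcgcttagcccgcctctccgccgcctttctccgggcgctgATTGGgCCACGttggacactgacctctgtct

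Of these 4 genes Chac1 was called higher and Asns lower, and their median difference was -0.07, against 0.62 over the 26 genes without the composite. Trib3 entered that median of few genes by its brightest probe (0.08). Another Trib3 probe differed by 1.92, and the mean of its kept probes by 1.00.

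Of the 31 genes with 2 or more kept probes, 9 had probes that were not all called alike (Atf4, Atf6, Canx, Derl1, Derl2, Dnajc3, Eif2ak3, Hyou1 and Trib3), and in Atf6 the calls were opposite. Of 88 mRNA probes for the 34 genes 85 were kept, and 55 of these were called higher, 4 lower and 26 not called; of all mRNA probes, 26.5% were called higher and 27.2% lower in the same fit. The 3 probes not kept were the second probes of Manf and Dnajb11, well above background on 0 arrays, and a further Trib3 probe, well above background on 2 contusion arrays and 0 control arrays. The adjusted p-values of this paragraph and the next are from limma's fit of single probes.

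The second Trib3 probe read -0.08, -0.23, -0.23 and -0.33 on the contusion arrays and -2.04, -2.42, -1.85 and -2.25 on the control arrays. All 4 contusion arrays were far above the controls, with a difference of 1.92 ± 0.13 (adjusted p = 6.16e-05), against 0.08 ± 0.14 for the probe that stands for the gene. That probe was the brighter by its mean over all arrays. In contused cord it was the dimmer (mean level -0.37 against -0.22), and in control cord the brighter (-0.45 against -2.14). Both probes are assigned to the same RefSeq mRNA and lie 670 bases apart on mm9. The responding probe is at chr2:152163355-152163414 and the other at chr2:152164025-152164084, so the responding probe is nearer the 3′ end of this minus-strand gene. The mean of the kept Trib3 probes gave a call (1.00 ± 0.08, adjusted p = 0.00015). For Derl2 the order was the reverse: on mm9 the brightest probe at chr11:70823456-70823515 differed by 1.21, and a dimmer probe 2409 bases nearer the 3′ end, at chr11:70821047-70821106, differed by -0.0048 ± 0.11 (adjusted p = 0.977). Another Derl2 probe differed by 0.05 ± 0.08 (adjusted p = 0.639). Averaged over its probes Derl2 was still called higher, by 0.42. The 3 Atf6 probes differed by 0.44 ± 0.08, 0.22 ± 0.06 and -0.43 ± 0.15 (adjusted p = 0.00218, 0.0155 and 0.0451), and the last, with a mean level of -2.75 in contused and -2.32 in control cord, was the dimmest. Of the 5 Derl1 probes 3 were called higher, and their differences were 0.03 to 0.77; of the 5 Dnajc3 probes 4 were called higher, with differences of 0.12 to 1.06. The second probes of Eif2ak3 and Hyou1 differed by 0.15 ± 0.05 and 0.29 ± 0.11 and were not called (adjusted p = 0.054 and 0.0641). The 4 Edem1 probes were all called higher, by 0.83 to 2.32, and 1 of 4 Canx probes was called higher, by 0.26 ± 0.07 (adjusted p = 0.018).

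**Figure D2:**
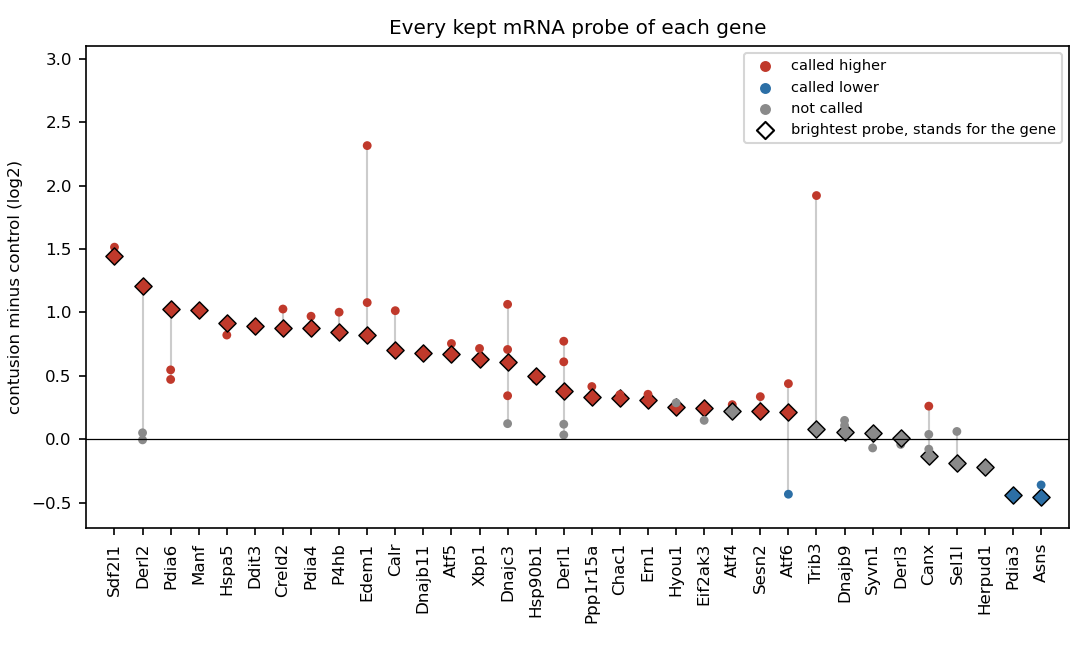
Contusion minus control difference (log2) of every kept mRNA probe, with the genes ordered by the brightest probe (diamond); red points were called higher, blue lower and grey not called. The probes of Trib3 span 0.08 to 1.92, those of Derl2 -0.0048 to 1.21, and those of Atf6 -0.43 to 0.44.

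The array also carried probes for circRNAs, closed RNA loops made by joining a splice donor to an upstream acceptor. By position, 89 circRNAs lay inside 16 of the 34 genes, and limma called 33 higher and 0 lower (1 lower at an unadjusted p under 0.05), with 56 not called. Of all circRNAs tested, 16.2% were called higher and 25.7% lower, and the median difference was 0.18 inside the genes against -0.05 over all circRNAs. The build of the circRNA positions is not given in the sources used here; they were placed on the GRCm38 gene table. Of the 89, 59 lay on the strand of their gene, 3 on the other strand, and 27 in Atf6, whose strand was not in the table used. The Atf6 mRNA probes with a given position lie on the minus strand, as these 27 circRNAs do. Of the 59 on the strand of their gene 29 were called higher, as were 2 of the 3 on the other strand. Those 2 lay in Hspa5 (0.75 ± 0.09) and Atf4 (0.22 ± 0.07). At a shared run of 20 bases, 57 of the 89 probes overlapped in sequence with another probe of the same gene, so they are not independent.

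At the Pdia3 locus 12 of 12 circRNAs were called higher, by 0.79 to 0.94, where 16.2% of all circRNAs were called higher. All contusion arrays lay above all control arrays for each of the 12, and the share of all circRNAs with that separation was not counted. The circRNA at chr2:121424525-121429583 had levels of 2.26, 2.26, 2.39 and 2.35 on the contusion arrays and 1.41, 1.28, 1.43 and 1.36 on the control arrays. It rose by 0.94 ± 0.07 (adjusted p = 0.00010), opposite to the -0.44 of the Pdia3 mRNA probe. Those at chr2:121422449-121434093, chr2:121431652-121432399 and chr2:121422449-121436000 rose by 0.92 ± 0.07, 0.87 ± 0.07 and 0.88 ± 0.07 (adjusted p = 0.00014, 0.00015 and 0.00015). Of the 12 probes 8 shared sequence with another, and 0 shared any with the mRNA probe. Whether these probes also read linear Pdia3 transcripts was not tested.

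The other genes varied in how the values of circRNAs and mRNA compared, and those differences were not tested. Of the circRNAs in Pdia6, that at chr12:17274453-17278956 had levels of 1.20, 1.13, 1.10 and 1.38 on the contusion arrays and 0.19, 0.0025, 0.24 and 0.03 on the control arrays. Its difference of 1.09 ± 0.09 (adjusted p = 0.00014) compares with 1.03 for the mRNA, and the second circRNA of Pdia6 rose by 0.75. All 4 circRNAs in Dnajc3 were called higher, by 0.56 to 0.64, against 0.61 for its mRNA, and the 1 in Hsp90b1 rose by 0.48 against 0.50. The single circRNAs in Edem1 and Sesn2 rose by 1.21 and 0.84, where the mRNAs differed by 0.83 and 0.22, and the 1 in Ddit3 was not called (0.20), where the mRNA differed by 0.89. For the Sesn2 circRNA the groups overlapped (limma adjusted p = 0.0349), and only 3 control arrays were well above background. Its difference was 0.86 within slide 1 and 0.17 within slide 2. In Ern1 5 of 13 were called, by 0.26 to 0.81. In Canx 3 of 18 were called higher and in Atf6 2 of 27, all by less than 0.3.

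**Figure D3:**
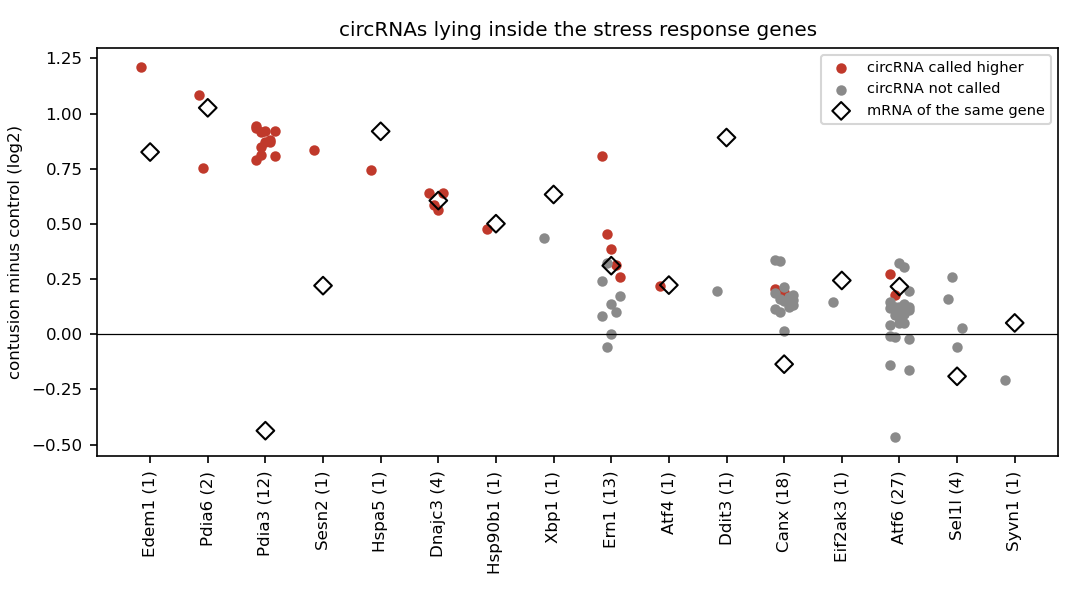
Contusion minus control difference (log2) of each circRNA lying inside 1 of the 34 genes, by gene, with the number of circRNAs in brackets; red points were called higher, grey points were not called, and the open diamond is the mRNA of the gene. The 12 circRNAs in Pdia3 lie between 0.79 and 0.94, while its mRNA lies at -0.44.

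Other genes of both pathways were counted in lists, again beside the 25.8% higher and 25.4% lower of all mRNA genes (25.2% and 20.4% with slide as a block). Of 12 further stress transcription factors and death genes, limma called 11 higher and 0 lower (0 lower also at an unadjusted p under 0.05), with a median difference of 1.10. Atf3, a factor induced by many injuries, averaged 4.07 ± 0.08 in contused cord and 0.29 ± 0.72 in control cord, a difference of 3.78 ± 0.31 (13.7-fold, adjusted p = 0.00015). Cebpb differed by 1.65 ± 0.10 (adjusted p = 8.27e-05), and the death genes Pmaip1, known as NOXA, and Bak1 differed by 1.44 ± 0.10 and 0.95 ± 0.08 (adjusted p = 0.00011 and 0.00015). Of 17 other sensors, kinases and transducers, 7 were called higher and 1 lower (median 0.11). Nfe2l2, which encodes NRF2, rose by 0.91 ± 0.07, Creb3 by 0.59 ± 0.06, the eIF2 subunit Eif2s1 by 0.60 ± 0.06 and Creb3l1 by 1.03 ± 0.13. The heme-regulated eIF2 kinase Eif2ak1 was lower (-0.37 ± 0.06, adjusted p = 0.00137).

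Of 25 genes of the ER translocon, signal peptidase and glycosylation, the machinery by which proteins enter the ER, 16 were called higher and 3 lower (median 0.42). Sec61b, a subunit of the channel, rose by 1.09 ± 0.08 (adjusted p = 0.00011), the oligosaccharyltransferase subunit Ddost by 0.82 ± 0.07, and the signal peptidase subunits Sec11a and Spcs3 by 0.64 ± 0.06 and 0.63 ± 0.06. Sec62, Sec63 and Srp54a were lower, by -0.28 ± 0.07, -0.30 ± 0.10 and -0.19 ± 0.06. With slide as a block, limma called 17 of this list higher and 1 lower. Sec63 and Srp54a were then not called (adjusted p = 0.126 and 0.141). Of 27 other ER folding proteins, 15 were called higher and 3 lower (median 0.38). Calu rose by 0.83 ± 0.06, Erp44 by 0.80 ± 0.06, Serp1 by 0.76 ± 0.06 and Cnpy2 by 0.60 ± 0.07, whereas Fkbp2, the folding sensor Uggt2 and Cdc37l1, a cytosolic co-chaperone that the list also holds, were lower by -0.27, -0.35 and -0.26. The slide block gave 15 higher and 2 lower, and Fkbp2 was not called (limma adjusted p = 0.0595).

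Of 22 other genes of ER-associated degradation, 6 were called higher and 2 lower (median 0.06). Ufd1, a cofactor of the extraction ATPase VCP, rose by 0.50 ± 0.06 (adjusted p = 0.00040), and Aup1 and Ubxn4 rose by 0.29 ± 0.06 and 0.23 ± 0.06. Vcp itself and the ubiquitin-conjugating enzyme Ube2j1 were lower (-0.36 ± 0.10 and -0.38 ± 0.07). With slide as a block 6 were called higher and 1 lower, and Vcp was not called (limma adjusted p = 0.0612). Of 17 tested genes of amino acid supply known as ATF4 targets, 6 were called higher and 3 lower (median 0.22), and Pycr1 was not tested. Shmt2, Gpt2 and Pck2 rose by 0.66 ± 0.08, 0.45 ± 0.07 and 0.34 ± 0.07, and the transporters Slc6a9 and Slc7a3 and the enzyme Cbs were lower (-0.49, -0.27 and -0.30). The slide block gave 6 higher and 1 lower. Slc7a3 and Cbs were then not called (limma adjusted p = 0.0673 and 0.0726). Of 20 cytosolic aminoacyl-tRNA synthetases, 6 were called higher and 2 lower (median 0.08). Tars, Rars, Dars and Lars rose by 0.45, 0.31, 0.42 and 0.31, and Nars and Yars were both lower, by -0.21 and -0.20. Neither Nars nor Yars was called with slide as a block (limma adjusted p = 0.117 and 0.0684).

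Of 9 stress-induced secreted and growth control genes, 3 were called higher and 1 lower (median 0.32). Gdf15, a secreted stress hormone, averaged 1.28 ± 0.15 in contused cord and -3.45 ± 0.85 in control cord, a difference of 4.73 ± 0.37 (26.5-fold, adjusted p = 0.00013). Eif4ebp1, an inhibitor of translation initiation, rose by 2.34 ± 0.19 (adjusted p = 0.00015), Fgf21 rose by 0.79 ± 0.12 (adjusted p = 0.00121), and Vegfa was lower (-0.78 ± 0.13, adjusted p = 0.00178). The cytosolic and mitochondrial stress lists served for comparison. Of 14 cytosolic heat shock genes, 3 were called higher and 5 lower (median -0.10), and 3 and 4 with slide as a block. The small heat shock protein Hspb1 rose by 2.13 ± 0.22, Bag3 by 0.61 ± 0.06 and Hspa1b by 0.76 ± 0.12, and the Hsp90 co-chaperones Fkbp4 and Stip1 were lower (-0.69 ± 0.07 and -0.58 ± 0.09). Of 10 genes of the mitochondrial unfolded protein response, limma called 1 higher (Yme1l1, 0.23 ± 0.06) and 0 lower (median 0.04), with 3 lower at an unadjusted p under 0.05.

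**Figure D4:**
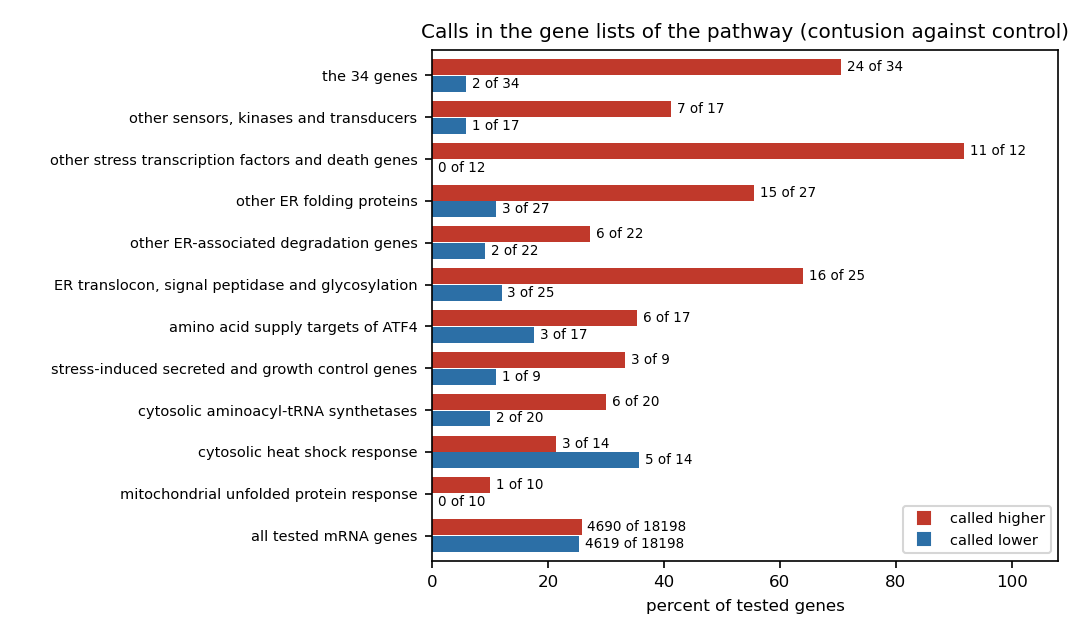
Percent of tested genes called higher (red, upper bar) and lower (blue, lower bar) in contused cord for the 34 genes, for each further list of the pathway and for all tested mRNA genes, with the counts beside the bars. The further transcription factors and death genes (11 of 12 higher), the 34 genes (24 of 34) and the translocon list (16 of 25) have the longest upper bars; all mRNA genes have 4690 of 18198.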

How the data were processed

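Spinal cord RNA of 8 mice was measured on 1-colour (Cy3) Agilent arrays with probes for mRNAs, lncRNAs and circRNAs. The deposited scanner files hold intensities, background-subtracted and detrended by Feature Extraction as the file headers record; no scaling between arrays had been applied. Versions read 10.7 for Feature Extraction in the submitters' processing notes, which also list limma, and 12.0.3.1 in the headers. The flags for signal above background, saturation and outlier spots (0 or 1) come from the same software, per the file headers. The authors' series table holds log2 values, which followed the log2 intensities with slopes of 0.983 to 1.02 and had column medians of 5.3993 to 5.3999; it served as an alternative. Of 172336 spots per header, 155279 were analysed here, with 150305 non-control probes, of which 72.9% to 75.4% were well above background on an array. Precision is limited by the number of arrays.

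The log2 processed intensity minus the 75th percentile of its array was used, without control and outlier spots. A probe was kept if it was well above background on 4 or more of the 8 arrays, and the brightest stood for a gene. The contusion and control groups were set against each other in limma (version 3.58.1 under R 4.3.3; lmFit, eBayes; two-sided) with Benjamini-Hochberg adjustment over 89140 features. The fit was tested on simulated data. Nothing in the labels says more of the replicates than that each was a mouse.

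The 34 genes, the other lists and the motifs were chosen with earlier results of these data known. All 34 genes are named; the 8 with the largest and the 4 with the smallest absolute difference have their value on every array, as have others where overlap between groups matters. Each further list names up to 4 called genes by smallest adjusted p and up to 3 called against its commoner direction, and of the circRNAs 5 are named by smallest adjusted p. Probe comparisons were added after the values were seen. Alternatives were the mean of a gene's probes, normexp with quantile normalization (offset 50), the series table, median scaling, other filters, slide or replicate number as a block, adjustment over mRNA genes alone, and leaving out arrays. Replicate numbers were not treated as pairs, since the labels tie them to nothing. Same-numbered arrays did not deviate together, but each such pair lay on different slides.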

Additional observations from a re-analysis of the deposited data

Results flagged for a closer look

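Within each group of 4 arrays, the highest and the lowest value of each of the 34 genes was set against the others of its group. Of 68 groups, 4 held 1 array apart from the rest, and chance sets about 1 in 20 groups apart in this way. Creld2 read 4.11 on control replicate 4, against 4.23 to 4.25 on the other control arrays. Atf6 read 0.89 on control replicate 1, against 0.974 to 0.976 on the others. Sesn2 read 3.63 on contusion replicate 4, against 3.73 to 3.75 on the other contusion arrays. Derl1 read 4.1 on contusion replicate 1, with the other contusion arrays at 3.98. For each of the 4 genes the array apart was still on its own group's side of every array of the other group.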

How the results depend on the processing

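Over 19 alternatives, 17 to 25 of the 34 genes were called higher, and the median difference was 0.338 to 0.403. The 17 genes called under every alternative were Sdf2l1, Derl2, Pdia6, Manf, Hspa5, Ddit3, Creld2, Pdia4, P4hb, Edem1, Calr, Dnajb11, Atf5, Xbp1, Dnajc3, Hsp90b1 and Derl1. Leaving out 1 array at a time gave 22 to 24 genes called higher, 1 to 3 called lower and a median difference of 0.352 to 0.387. The share of all mRNA genes called also moves with the setting. It was 25.8% higher and 25.4% lower in the report, and 25.2% and 20.4% with slide as a block. For most alternatives it is not given here, so their counts do not separate a change in the 34 genes from one in all genes. The count called lower, 2 in the report, was 4 with normexp and quantile normalization (Herpud1 and Sel1l added), 3 with the mean of a gene's probes and 3 with adjustment over mRNA genes alone (Herpud1 was added in both), 1 with slide as a block, 1 with the replicate block and 0 without contusion replicates 1 and 2. With the replicate block 19 genes were called higher. The labels do not pair the arrays by number, and the correlations of same-numbered deviations were -0.302, -0.00603, 4.89e-06 and -0.0464. Each same-numbered pair lay on different slides. Between contusion and control arrays the correlations were -0.00496 to 0.218 on the same slide and -0.302 to 0.0511 on different slides. Among the pairs on different slides, the correlations were -0.302 to 4.89e-06 for same-numbered arrays and -0.189 to 0.0511 for arrays of unlike number. That comparison was not tested. Leaving out contusion replicates 1 and 2 (muscle markers) or control replicates 1 and 3 was chosen after seeing the data. Those control arrays read 5.82 and 6.11 for S100a9, a neutrophil gene, against 2.78 and 4.24 on the other control arrays, and without them 21 genes were called higher and 3 lower. The signs that turned were all of genes not called: Derl3 was -0.016 with the mean of its probes, -0.057 with normexp, -0.011 with median scaling, -0.039 with slide as a block, -0.056, -0.0015 and -0.019 without contusion replicates 2 and 3 and control replicate 3, and -0.014 and -0.035 in the alternatives chosen later. Canx was 0.021 with the mean of its probes and 0.0020 with slide as a block, Trib3 -0.10 with slide as a block and -0.014 without control replicate 3, and Dnajb9 -0.046 without contusion replicate 1 and -0.018 without contusion replicates 1 and 2. Leaving out 1 array at a time gave -0.056 to 0.057 for Derl3, -0.014 to 0.17 for Trib3 and -0.046 to 0.11 for Dnajb9. The cause of these changes was not tested. Of the 88 probes, the 3 that were not kept had too few arrays well above background to be tested.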
